A study of Homo sapiens with 12 samples.

Results

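The genes described here are 52 interferon-stimulated effector genes, which code for the proteins that a cell makes when interferon reaches it. They were taken as a list of gene symbols and followed after silencing of cyclin D1 in JeKo-1 and Granta-519 cells, both derived from mantle cell lymphoma. All 52 symbols stood on a single row in each table, out of 23617 gene symbols in the Granta-519 table and 23615 in the JeKo-1 table. RNA was sequenced from 12 libraries in 4 groups of 3, which the series calls biological replicates. Granta-519 shCtrl and JeKo-1 shCtrl were infected with lentivirus carrying a control shRNA. Granta-519 shCycD1 and JeKo-1 shCycD1 carried an shRNA against cyclin D1 instead. All 4 groups went through lentiviral infection and puromycin selection, so each comparison is between infected cells, and the response to infection itself was not measured. The lines were grown in different media, and whether the cells of a group came from 1 clone or a pool is not given in the sources used here.

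Mantle cell lymphoma is a B-cell lymphoma in which a translocation usually puts CCND1, the cyclin D1 gene, under an immunoglobulin enhancer. Levels are given as RPKM, reads per kilobase of gene scaled to the size of the library. CCND1, the targeted gene, stood at 924, 1043 and 874 RPKM in the shCtrl libraries and 213, 298 and 292 in the shCycD1 libraries in Granta-519 (log2 change -1.83 ± 0.14, adjusted p = 0.000257). JeKo-1 had 395, 330.1 and 315 RPKM in the shCtrl libraries and 65.4, 64.8 and 67.4 in the shCycD1 libraries (log2 change -2.38 ± 0.093, adjusted p = 1.96e-06). Its groups did not overlap in either line. The knockdown itself differed between the lines (Granta-519 minus JeKo-1: 0.55 ± 0.18, adjusted p = 0.0306), with the larger fall in JeKo-1, though not in 9 of 24 alternatives, among them quantile normalization (0.38, adjusted p = 0.0886), the log2 reading of the JeKo-1 values (-0.16, adjusted p = 0.486) and leaving out any of 7 single libraries (shCtrl 1 or 3 and shCycD1 2 or 3 of Granta-519, shCtrl 1 and shCycD1 1 or 2 of JeKo-1). With scaling by spike-in RNAs added to the samples, the CCND1 change was -1.06 in Granta-519 (adjusted p = 0.000166) and -2.44 in JeKo-1 (adjusted p = 5.84e-10). The difference with that scaling was 1.38 (adjusted p = 0.0105). The B-cell genes MS4A1, CD79A, CD79B, PAX5 and CD22 were all at 1 RPKM or more on average in both lines, and SOX11, a mantle cell lymphoma marker, was at 3.53 RPKM or more in every library. Some of them had groups that did not overlap. In JeKo-1 CD22 was at 5.45 to 7.63 RPKM in shCtrl and 21.6 to 26.5 in shCycD1, CD79A at 266 to 350.0 and 426 to 514, and CD79B at 356 to 435 and 529 to 664. In Granta-519 CD79A was lower with silencing (954 to 1020 and 779 to 857), as was CD79B (234 to 243 and 164 to 193). SOX11 was lower in both lines (94.1 to 119 and 65.8 to 86.0 in Granta-519, 5.97 to 6.74 and 3.53 to 4.26 in JeKo-1). Their part in the results was not tested. Across genes, r between libraries within a group was 0.99 for Granta-519 and 0.98 for JeKo-1; between groups it was 0.98 and 0.95 to 0.96.

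Type I interferons bind the IFNAR1 and IFNAR2 receptor, which activates the kinases JAK1 and TYK2. These phosphorylate STAT2, which acts with IRF9 in a complex that binds the interferon-stimulated response element in the promoters of its target genes. The products of those genes block virus entry, destroy or sequester viral RNA, attach the ubiquitin-like protein ISG15 to other proteins, or deplete nucleotides.

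The members' promoters were searched for the core of that response element, written GAAA, any 2 bases (NN), GAAA, on both strands. The search used RefSeq promoters of the build GRCh38.p14, 250 bases before to 50 after each gene's start. The core was found in 29 of the 44 members that had a promoter sequence (65.9%), against 996 of 27305 promoters in all (3.65%). It was present once in 13 members, 2 times in 13 and 3 times in 3. The commonest of the 48 matches was GAAACTGAAA, with 10. TTCNNNGAA, the pattern of the gamma-activated site, reads the same on both strands and was found in 9 of the 44 members (20.5%) and in 7.88% of all promoters. In BST2, EPSTI1, IFI27 and IFITM1 a match to it overlaps a match to the core. The 160 bases before the start are shown for 5 genes, 5′ to 3′ on the gene's strand, with the matches in capitals. IFI6, EPSTI1, IFITM3 and OAS3 are shown because, ranked by the smaller of their changes in the lines, they were the highest members called in both that hold the core before the start. IFIT3 had the largest change in JeKo-1 and was added after its values were seen.
IFI6: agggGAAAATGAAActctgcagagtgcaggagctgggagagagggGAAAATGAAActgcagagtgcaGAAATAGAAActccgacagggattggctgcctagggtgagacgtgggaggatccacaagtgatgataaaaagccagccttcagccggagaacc
EPSTI1: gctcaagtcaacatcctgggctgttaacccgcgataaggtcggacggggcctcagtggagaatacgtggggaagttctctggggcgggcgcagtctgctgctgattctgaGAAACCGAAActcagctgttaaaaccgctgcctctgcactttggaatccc
IFITM3: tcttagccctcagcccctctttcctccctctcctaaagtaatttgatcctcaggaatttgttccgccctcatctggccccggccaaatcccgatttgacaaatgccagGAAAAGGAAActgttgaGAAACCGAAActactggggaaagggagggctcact
OAS3: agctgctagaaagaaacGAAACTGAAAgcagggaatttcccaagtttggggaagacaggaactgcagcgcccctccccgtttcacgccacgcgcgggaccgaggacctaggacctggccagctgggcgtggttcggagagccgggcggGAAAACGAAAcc
IFIT3: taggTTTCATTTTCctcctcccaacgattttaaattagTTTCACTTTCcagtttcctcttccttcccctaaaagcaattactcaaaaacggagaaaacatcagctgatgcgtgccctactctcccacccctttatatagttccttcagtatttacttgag
The IFI6 window (chr1:27672193-27672352, minus strand) holds 3 matches. The EPSTI1 window (chr13:42992242-42992401, minus strand) holds 1 match, and the IFITM3 window (chr11:320861-321020, minus strand) holds 2 matches close to the start. In OAS3 (chr12:112938314-112938473, plus strand) 1 match lies near the far end and the other ends 3 bases before the start. In IFIT3 (chr10:89327837-89327996, plus strand) both matches read on the other strand. MX1 has its match GAAACCGAAA after the start, at bases 12 to 21. A match describes letters in a window and does not show that a factor bound there.

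**Figure D1:**
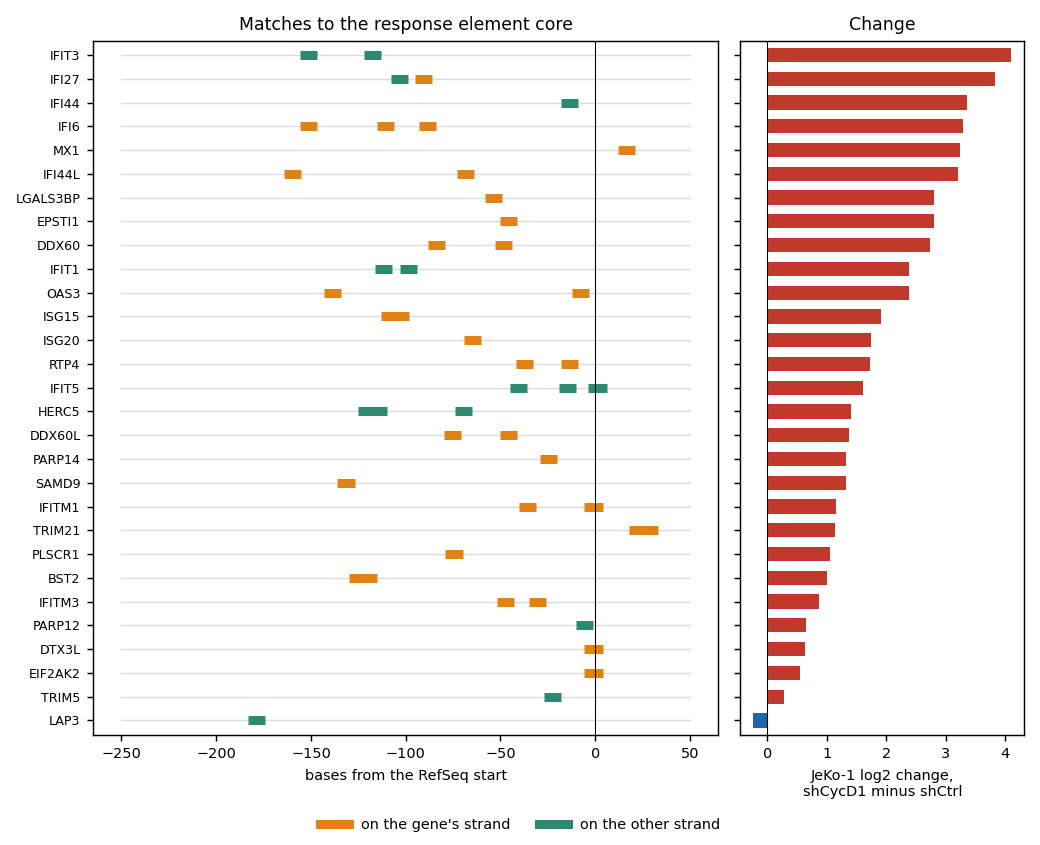
Left, position of each match to the response element core (bases from the RefSeq start, orange on the gene's strand, green on the other strand) in the 29 members that hold one. Right, the JeKo-1 change of the same gene as a difference of log2(RPKM + 0.5), shCycD1 minus shCtrl. Most matches, 39 of 48, lie within the 160 bases before the start, and LAP3 is the only gene of the 29 with a change below 0.

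In JeKo-1, 47 of the 52 members rose with cyclin D1 silencing, 4 fell and 1 was not called. Changes are differences of log2(RPKM + 0.5) with their standard error, tested with limma over all genes of a line, and a gene is said to have risen or fallen at an adjusted p under 0.05. Over all 11866 JeKo-1 genes tested, 64.6% were called, with 36.7% risen and 27.8% fallen. The median change of the members was 1.54, against 0.085 for all genes. The 47 risen members had 3 shCycD1 libraries that all lay above the 3 shCtrl libraries (39.1% of all genes), and the 4 fallen members lay below (30.5%). Of the 52, 17 reached the minimum for testing (1 RPKM in at least 3 libraries) only through their shCycD1 libraries. In these 17, passing it meant that every shCycD1 library lay above every control, so their separation is not a separate result. Without that minimum the count over all 52 was again 47 and 4, where 28.2% of all genes rose and 17.9% fell. With scaling by the spike-in RNAs, synthetic transcripts added to each sample, 37 members rose and 0 fell, where 14.4% and 11.7% of all genes were called. The 14 members whose JeKo-1 call was lost in this way were ADAR, DTX3L, EIF2AK2, IFITM2, IFITM3, MX2, PARP12, SHISA5, SP110 and TRIM5 among the risen and all 4 of the fallen, IFI16, LAP3, SAMHD1 and SP100. The JeKo-1 levels and changes rest on reading that table as a natural log, which its values did not settle; read as log2, the median of the members was 1.19. In bulk RNA, fewer cells that express a gene and less RNA per cell cannot be told apart, in either line.

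In Granta-519 members were called in both directions. Of the 41 members that could be tested, 15 rose, 6 fell and 20 were not called, while over all 12668 genes 40.6% were called, with 22.4% risen and 18.2% fallen. Over all 52 members, the silenced libraries lay wholly above the controls in 27 and wholly below in 9. The shares of all genes tested were 29.8% and 24.2%, which leave out genes under the minimum for testing. The 27 include members that were not tested, namely HERC5, HERC6, OASL, DDX60, DDX60L, RSAD2, CMPK2, IFI44L and XAF1, whereas the 9 were all tested. The count above is therefore not on the same set as its share. The median change was 0.20, against 0.032 for all genes. Of these 41, 3 (MX1, EPSTI1 and OAS3) passed the minimum only through their shCycD1 libraries, which fixed the separation of their groups. Without the minimum, 21 of all 52 members rose and 6 fell (16.5% and 10.8% of all genes), with a median of 0.22. The count of fallen members differed with the scaling of the libraries: with spike-in scaling, by which the all-gene median went from 0.032 to 0.74 in Granta-519 (and from 0.085 to 0.028 in JeKo-1), 30 members rose and 0 fell, where 60.8% and 1.16% of all genes were called. The members called as risen with that scaling and not with the deposited one were ADAR, IFI44, IFIT3, IFIT5, ISG15, ISG20, PARP14, PHF11, RTP4, SHISA5, SP110, TRIM5, TRIM21, TRIM22 and UBE2L6.

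**Figure D2:**
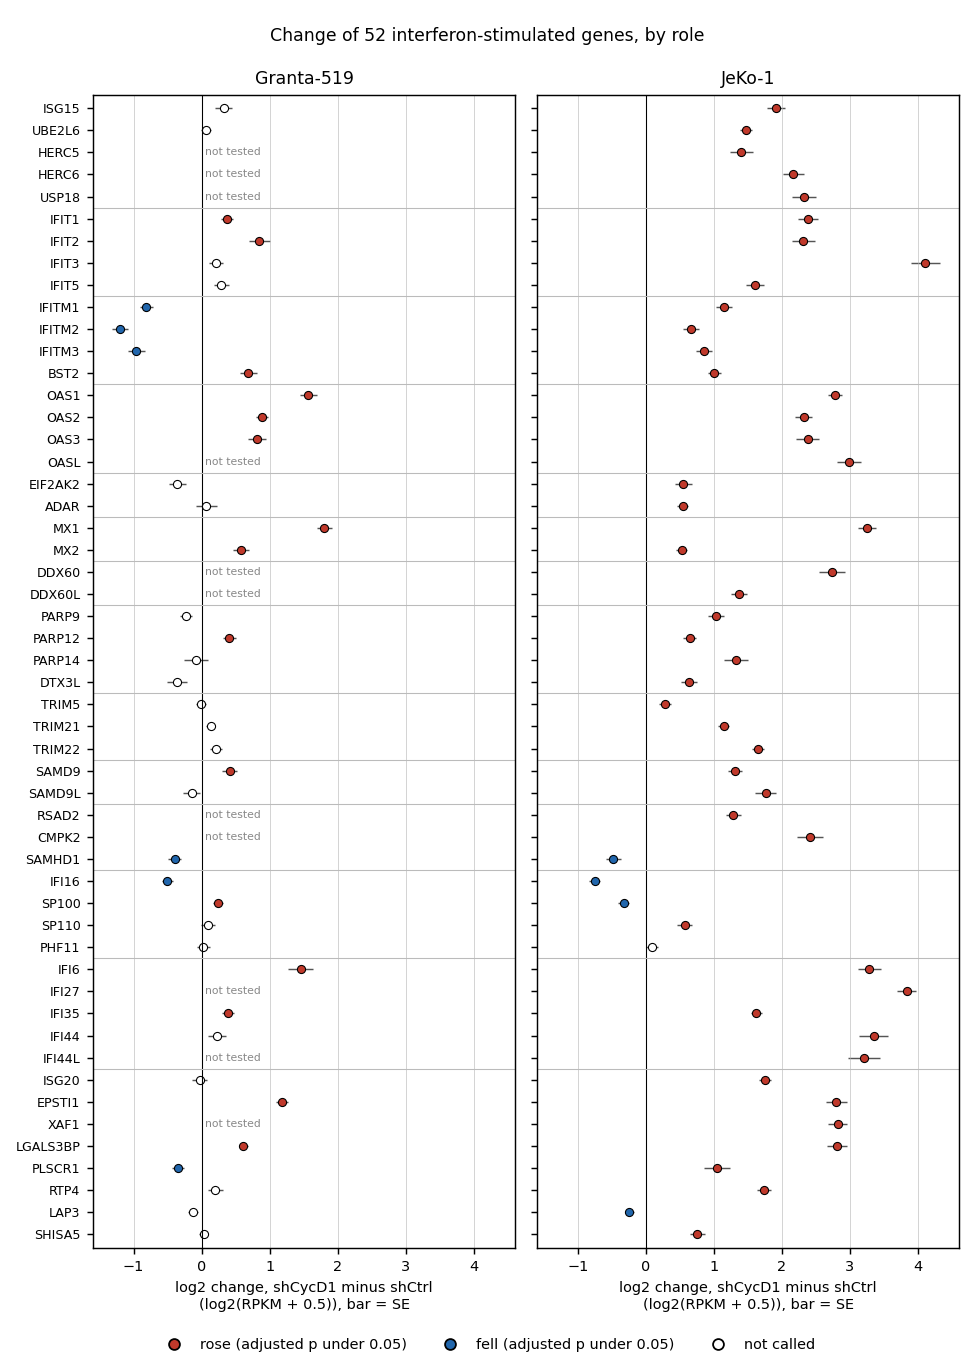
Change of each member (difference of log2(RPKM + 0.5), shCycD1 minus shCtrl, bar = SE of the limma fit on 3 against 3 libraries), ordered by role, in Granta-519 and JeKo-1. In JeKo-1 all but 5 points are red (risen), whereas in Granta-519 they spread around 0, with IFITM1, IFITM2 and IFITM3 lowest and MX1 highest.

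ISG15 is a ubiquitin-like protein that is both secreted and attached to other proteins. UBE2L6 is the conjugating enzyme and HERC5 the ligase of that attachment, HERC6 is a relative of HERC5, and USP18 removes ISG15 and restrains the receptor. In JeKo-1 all 5 rose. ISG15 stood at 38.5, 37.1 and 27.8 RPKM in the shCtrl libraries and 123, 125 and 142 in the shCycD1 libraries (log2 change 1.91 ± 0.13, adjusted p = 2.51e-05). The shCycD1 libraries were all more than 3 times the highest shCtrl library. UBE2L6 rose by 1.47, HERC5 by 1.41, HERC6 by 2.17 and USP18 by 2.32 on the log2 scale. USP18 stood at 3.89, 2.52 and 3.27 RPKM in the shCtrl libraries and 18.5, 14.7 and 21.2 in the shCycD1 libraries. In Granta-519 ISG15 stood at 202, 218 and 159 RPKM in the shCtrl libraries and 229, 232 and 259.5 in the shCycD1 libraries (log2 change 0.32 ± 0.13, adjusted p = 0.0832), and its groups did not overlap although the change was not called. It was called with quantile normalization (0.31, adjusted p = 0.0499), GC correction (0.32, adjusted p = 0.0415), library weights (0.29, adjusted p = 0.0246), spike-in scaling (1.09, adjusted p = 0.000247) and after leaving out shCtrl 2 (0.42, adjusted p = 0.0404). UBE2L6 was at 0.063 there (adjusted p = 0.549). The changes of ISG15 and UBE2L6 differed between the lines (Granta-519 minus JeKo-1: -1.59 ± 0.20, adjusted p = 8.85e-05 and -1.41 ± 0.12, adjusted p = 5.61e-06).

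Among the proteins of the 4 IFIT genes, IFIT1 binds viral RNA that lacks the cap methylation of the cell's own messages. All 4 rose in JeKo-1, where no control library was above 1.42 RPKM for any of them. IFIT3 stood at 1.37, 0.668 and 1.42 RPKM in the shCtrl libraries and 25.1, 25.1 and 32.4 in the shCycD1 libraries (log2 change 4.11 ± 0.21, adjusted p = 6.16e-06), the largest rise of the 52. Every shCycD1 library was more than 15 times the highest shCtrl library. IFIT1 stood at 0.152, 0.188 and 0.135 RPKM in the shCtrl libraries and 2.34, 3.04 and 3.55 in the shCycD1 libraries and IFIT2 at 0.0848, 0.0668 and 0.11 RPKM in the shCtrl libraries and 1.77, 2.55 and 3.08 in the shCycD1 libraries. Both were at 0.188 RPKM or less in every control library, so their changes of 2.39 and 2.31 are held down by the pseudocount of 0.5 RPKM. IFIT5 rose by 1.60. In Granta-519 IFIT2 rose, with 18.3, 13.6 and 19.6 RPKM in the shCtrl libraries and 35.0, 27.3 and 30.7 in the shCycD1 libraries (log2 change 0.84 ± 0.15, adjusted p = 0.00557). IFIT1 rose by 0.37 (adjusted p = 0.0147), a call lost without shCtrl 1 (0.32, adjusted p = 0.0595). IFIT3 stood at 74.9, 63.8 and 62.0 RPKM in the shCtrl libraries and 80.5, 83.0 and 68.6 in the shCycD1 libraries (log2 change 0.21 ± 0.11, adjusted p = 0.165), with overlapping groups. IFIT5 was at 0.28 (adjusted p = 0.0799) and was called higher with, among others, GC correction (0.31, adjusted p = 0.0312), library weights (0.41, adjusted p = 0.00401) and after leaving out shCtrl 3 (0.39, adjusted p = 0.0224). For IFIT3 the lines differed by -3.90 ± 0.25, adjusted p = 9.43e-07, the largest of the members. For IFIT1 it was -2.01 ± 0.17, adjusted p = 5.65e-06, for IFIT2 -1.47 (adjusted p = 0.000639) and for IFIT5 -1.32 (adjusted p = 0.000139).

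**Figure D3:**
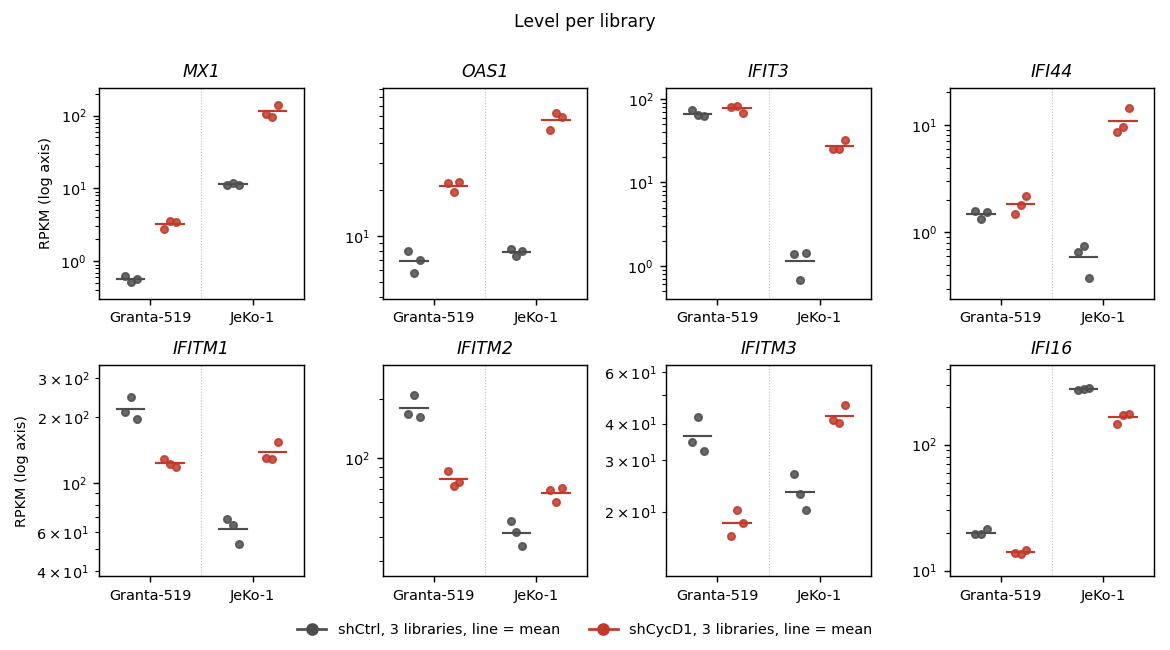
Level of 8 members in each library (RPKM, log axis; points are libraries, lines are means of 3), with levels comparable within a line only. MX1 and OAS1 rise in both lines, IFIT3 and IFI44 overlap in Granta-519 and separate in JeKo-1, IFITM1, IFITM2 and IFITM3 go down in Granta-519 and up in JeKo-1, and IFI16 goes down in both; with spike-in scaling the falls were not called. The minimum for testing fixed the separation of IFI44 in JeKo-1 and of MX1 in Granta-519.

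The IFITM proteins sit in membranes and hinder the fusion of viruses with the cell, and IFITM1 is also known as a partner of CD81 in the B-cell coreceptor. They are the one family of the set that was called in opposite directions in the lines, though its falls in Granta-519 were not called with spike-in scaling. In Granta-519 IFITM1 stood at 211, 246 and 197 RPKM in the shCtrl libraries and 129, 123 and 119 in the shCycD1 libraries (log2 change -0.81 ± 0.095, adjusted p = 0.000951). IFITM2 stood at 168, 209.5 and 163 RPKM in the shCtrl libraries and 86.0, 72.0 and 76.0 in the shCycD1 libraries (log2 change -1.20 ± 0.12, adjusted p = 0.000526), the largest fall of the set. IFITM3 stood at 34.6, 42.0 and 32.1 RPKM in the shCtrl libraries and 16.5, 20.2 and 18.2 in the shCycD1 libraries (log2 change -0.96 ± 0.12, adjusted p = 0.00134). In all 3 genes every shCycD1 library lay below every shCtrl library. With spike-in scaling the values were -0.041, adjusted p = 0.893 for IFITM1, -0.43, adjusted p = 0.154 for IFITM2 and -0.21, adjusted p = 0.535 for IFITM3, still below 0 but not called.

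In JeKo-1 the same genes rose. IFITM1 stood at 68.7, 64.9 and 53.0 RPKM in the shCtrl libraries and 131, 129.7 and 154 in the shCycD1 libraries (log2 change 1.15 ± 0.12, adjusted p = 0.000149). IFITM2 stood at 47.9, 42.0 and 35.7 RPKM in the shCtrl libraries and 68.8, 60.2 and 70.3 in the shCycD1 libraries (log2 change 0.67 ± 0.12, adjusted p = 0.00208) and IFITM3 at 26.8, 22.9 and 20.2 RPKM in the shCtrl libraries and 41.1, 40.1 and 46.3 in the shCycD1 libraries (log2 change 0.86 ± 0.12, adjusted p = 0.00054). The groups did not overlap in any of them, and with spike-in scaling IFITM2 (0.61, adjusted p = 0.195) and IFITM3 (0.80, adjusted p = 0.0629) were not called. The differences between the lines were -1.96 ± 0.16, adjusted p = 4.55e-06 for IFITM1, -1.86 ± 0.18, adjusted p = 1.43e-05 for IFITM2 and -1.82 ± 0.18, adjusted p = 1.69e-05 for IFITM3. With spike-in scaling the IFITM1 difference was still called, while those of IFITM2 (-1.03, adjusted p = 0.0547) and IFITM3 (-1.0, adjusted p = 0.0597) were not. These genes are neighbours and close copies of each other, so reads could be split among them and the value of each one alone is uncertain. BST2, or tetherin, holds budding virus particles at the cell surface and did not follow them. It rose in both lines. Granta-519 held 234, 296 and 216 RPKM in the shCtrl libraries and 385, 426 and 378 in the shCycD1 libraries (log2 change 0.68 ± 0.13, adjusted p = 0.00558), and JeKo-1 held 46.5, 46.9 and 39.8 RPKM in the shCtrl libraries and 82.7, 90.1 and 96.0 in the shCycD1 libraries (log2 change 1.01 ± 0.093, adjusted p = 9.46e-05), with groups apart in each. Its difference was -0.32 (adjusted p = 0.133), called with quantile normalization (-0.42, adjusted p = 0.0377).

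The OAS enzymes make short chains of adenylate when they meet double-stranded RNA, which switches on RNase L, while OASL has no such activity. OAS1 rose in both lines. It stood at 8.0, 5.71 and 6.95 RPKM in the shCtrl libraries and 22.2, 19.3 and 22.3 in the shCycD1 libraries in Granta-519 (log2 change 1.57 ± 0.13, adjusted p = 0.000295). JeKo-1 values were 8.15, 7.41 and 7.92 RPKM in the shCtrl libraries and 48.9, 63.0 and 59.2 in the shCycD1 libraries (log2 change 2.78 ± 0.11, adjusted p = 1.96e-06). OAS2 stood at 8.62, 8.15 and 8.88 RPKM in the shCtrl libraries and 15.0, 16.5 and 17.2 in the shCycD1 libraries in Granta-519 (log2 change 0.89 ± 0.082, adjusted p = 0.000424) and its JeKo-1 rise was 2.32, from 10.2 ± 0.925 to 52.9 ± 7.33 RPKM. OAS3 rose by 0.81 (adjusted p = 0.00393) and by 2.38 (adjusted p = 2.69e-05). In each of these 3 genes the groups did not overlap in either line, and the Granta-519 rises were called under every alternative in which they were tested. For OAS3, whose controls were all under 1 RPKM in both lines, the minimum for testing fixed that separation. The rise was smaller in Granta-519 for OAS1 (-1.21 ± 0.17, adjusted p = 0.000258), OAS2 (-1.43 ± 0.15, adjusted p = 2.79e-05) and OAS3 (-1.56 ± 0.23, adjusted p = 0.000267). The OAS1 difference was lost when the JeKo-1 values were read as log2 (-0.44, adjusted p = 0.0503), and those of OAS1 (-0.42, adjusted p = 0.423) and OAS2 (-0.63, adjusted p = 0.225) with spike-in scaling. OASL stood at 0.643, 0.753 and 0.374 RPKM in the shCtrl libraries and 8.11, 6.7 and 9.65 in the shCycD1 libraries in JeKo-1 (log2 change 2.99 ± 0.18, adjusted p = 1.27e-05).

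Among the other genes that bind double-stranded RNA, EIF2AK2 encodes the kinase PKR, which stops translation, and ADAR encodes the adenosine deaminase that edits such RNA. In JeKo-1 EIF2AK2 rose by 0.55 (adjusted p = 0.00735) and ADAR by 0.54 (adjusted p = 0.000852), both lost with spike-in scaling (0.49, adjusted p = 0.269 and 0.48, adjusted p = 0.338). In Granta-519 EIF2AK2 stood at 7.39, 6.18 and 7.42 RPKM in the shCtrl libraries and 4.62, 6.18 and 5.28 in the shCycD1 libraries (log2 change -0.36 ± 0.13, adjusted p = 0.0587), its highest shCycD1 library level with its lowest shCtrl library. It was called lower there with quantile normalization (-0.39, adjusted p = 0.02), library weights (-0.47, adjusted p = 0.00247) and after leaving out shCtrl 2 (-0.44, adjusted p = 0.0352) or shCycD1 2 (-0.46, adjusted p = 0.0339). ADAR was at 0.070 (adjusted p = 0.756). The EIF2AK2 change differed between the lines (-0.91 ± 0.19, adjusted p = 0.00251), while that of ADAR was not called (-0.47 ± 0.19, adjusted p = 0.0622) but was with quantile normalization (-0.57, adjusted p = 0.0396) and library weights (-0.66, adjusted p = 0.00287) and after leaving out Granta-519 shCtrl 2 (-0.63, adjusted p = 0.00575) or shCycD1 2 (-0.58, adjusted p = 0.0284).

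MX1 and MX2 are large GTPases that trap viral nucleocapsids. MX1 had the largest rise of the set in Granta-519, where it stood at 0.617, 0.526 and 0.568 RPKM in the shCtrl libraries and 2.75, 3.61 and 3.4 in the shCycD1 libraries (log2 change 1.8 ± 0.11, adjusted p = 0.000186). Its JeKo-1 values were 11.3, 11.8 and 11.3 RPKM in the shCtrl libraries and 105, 97.1 and 141 in the shCycD1 libraries (log2 change 3.25 ± 0.14, adjusted p = 2.51e-06). Every silenced library was above every control library in both lines, though in Granta-519 the minimum for testing fixed this in advance. MX2 rose in both as well. It stood at 7.4, 7.47 and 6.33 RPKM in the shCtrl libraries and 10.8, 12.2 and 9.49 in the shCycD1 libraries in Granta-519 (log2 change 0.58 ± 0.12, adjusted p = 0.00776). JeKo-1 had 33.8, 28.9 and 30.6 RPKM in the shCtrl libraries and 45.4, 44.2 and 45.4 in the shCycD1 libraries (log2 change 0.53 ± 0.079, adjusted p = 0.000852). The difference was -1.45 ± 0.19, adjusted p = 0.000119 for MX1 and 0.047 ± 0.14, adjusted p = 0.81 for MX2, so of these neighbouring genes MX1 alone was called different between the lines, and not with spike-in scaling (-0.86, adjusted p = 0.0927). At its low Granta-519 level the MX1 change is held down by the pseudocount of 0.5 RPKM, which widens its difference. That difference was still called with pseudocounts of 0.1 and 1 RPKM.

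DDX60 is a helicase-like protein that helps the RNA sensor RIG-I, and DDX60L is its neighbouring copy. DDX60 stood at 0.0555, 0.0499 and 0.069 RPKM in the shCtrl libraries and 2.29, 3.42 and 4.19 in the shCycD1 libraries in JeKo-1 (log2 change 2.73 ± 0.18, adjusted p = 2.27e-05). All 3 controls were under 0.1 RPKM and all 3 silenced libraries over 2 RPKM, though the minimum for testing fixed in advance that they lay apart. DDX60L stood at 0.146, 0.157 and 0.166 RPKM in the shCtrl libraries and 1.02, 1.15 and 1.45 in the shCycD1 libraries (log2 change 1.37 ± 0.12, adjusted p = 6.78e-05). In Granta-519 neither reached the minimum for testing.

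PARP9, PARP12 and PARP14 belong to the poly(ADP-ribose) polymerase family, and DTX3L is the ubiquitin ligase that pairs with PARP9. In JeKo-1 all 4 rose. PARP14 stood at 3.3, 4.28 and 4.9 RPKM in the shCtrl libraries and 8.8, 12.3 and 12.4 in the shCycD1 libraries (log2 change 1.32 ± 0.18, adjusted p = 0.000517), PARP9 rose by 1.03, PARP12 by 0.64 and DTX3L by 0.63. With spike-in scaling the calls of PARP12 (0.59, adjusted p = 0.126) and DTX3L (0.57, adjusted p = 0.198) were lost. In Granta-519 only PARP12 of these was called. It rose, with 2.23, 2.31 and 2.58 RPKM in the shCtrl libraries and 3.0, 3.41 and 3.53 in the shCycD1 libraries (log2 change 0.41 ± 0.10, adjusted p = 0.0155), a call lost without shCtrl 1 (0.37, adjusted p = 0.0608) or shCycD1 3 (0.37, adjusted p = 0.0612). DTX3L stood at 120.0, 92.1 and 135 RPKM in the shCtrl libraries and 81.4, 91.4 and 93.9 in the shCycD1 libraries (log2 change -0.36 ± 0.14, adjusted p = 0.0851), with overlapping groups. PARP9 was at -0.23 (adjusted p = 0.0819) and PARP14 at -0.080 (adjusted p = 0.744). Without shCtrl 2, PARP9 (-0.31, adjusted p = 0.0163) and DTX3L (-0.52, adjusted p = 0.00908) were called lower, as they were with library weights (-0.32, adjusted p = 0.00228 and -0.43, adjusted p = 0.00355) and PARP9 with quantile normalization (-0.24, adjusted p = 0.0369). The difference between the lines was called for PARP9 (-1.26 ± 0.15, adjusted p = 6.55e-05), PARP14 (-1.41 ± 0.27, adjusted p = 0.00153) and DTX3L (-1.0 ± 0.20, adjusted p = 0.00204) but not for PARP12 (-0.23 ± 0.13, adjusted p = 0.166).

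The TRIM genes encode ubiquitin ligases: TRIM5 recognises retroviral capsids, TRIM21 is a receptor for antibody inside the cell, and TRIM22 restrains viral transcription. In JeKo-1 TRIM22 stood at 13.7, 13.1 and 14.8 RPKM in the shCtrl libraries and 40.8, 47.1 and 45.5 in the shCycD1 libraries (log2 change 1.65 ± 0.088, adjusted p = 7.55e-06). TRIM21 stood at 11.6, 10.6 and 11.2 RPKM in the shCtrl libraries and 23.5, 25.8 and 26.5 in the shCycD1 libraries (log2 change 1.15 ± 0.083, adjusted p = 3.08e-05). Groups of both genes lay clearly apart. TRIM5 rose by only 0.28 (adjusted p = 0.0212), a call lost with quantile normalization (0.21, adjusted p = 0.0626) and without any 1 library other than shCtrl 1 (for example 0.24, adjusted p = 0.065 without shCtrl 3). In Granta-519 none of the 3 was called: TRIM22 stood at 63.9, 58.5 and 66.6 RPKM in the shCtrl libraries and 72.5, 79.0 and 67.8 in the shCycD1 libraries (log2 change 0.21 ± 0.086, adjusted p = 0.0905), TRIM21 was at 0.13 (adjusted p = 0.147) and TRIM5 at -0.0086 (adjusted p = 0.94). With library weights TRIM22 (0.16, adjusted p = 0.0483) and TRIM21 (0.18, adjusted p = 0.0142) were called higher, and with spike-in scaling all 3 were (0.98, adjusted p = 0.00228, 0.89, adjusted p = 0.00857 and 0.74, adjusted p = 0.0314). With that scaling the Granta-519 median of all genes was itself 0.74, the value of TRIM5, and 60.8% of all genes rose. The difference was called for TRIM22 (-1.44 ± 0.12, adjusted p = 5.73e-06) and TRIM21 (-1.01 ± 0.10, adjusted p = 1.66e-05). That of TRIM5 (-0.29 ± 0.10, adjusted p = 0.038) was lost under 13 alternatives, among them each library left out other than Granta-519 shCtrl 2 and shCycD1 2 and JeKo-1 shCtrl 1.

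SAMD9 and SAMD9L are neighbouring genes whose proteins restrict poxviruses and cell growth. In JeKo-1 SAMD9 rose by 1.31 and SAMD9L stood at 0.295, 0.247 and 0.35 RPKM in the shCtrl libraries and 1.87, 1.97 and 2.85 in the shCycD1 libraries (log2 change 1.76 ± 0.15, adjusted p = 6.56e-05). In Granta-519 SAMD9 stood at 27.6, 24.2 and 29.4 RPKM in the shCtrl libraries and 33.3, 40.3 and 34.8 in the shCycD1 libraries (log2 change 0.41 ± 0.11, adjusted p = 0.0208). That call was lost with the replicate block (the number as a factor: 0.41, adjusted p = 0.0629) and without shCtrl 1 (0.43, adjusted p = 0.053) or shCycD1 2 (0.33, adjusted p = 0.0568). SAMD9L stood at 24.7, 20.1 and 23.5 RPKM in the shCtrl libraries and 18.9, 24.0 and 18.6 in the shCycD1 libraries (log2 change -0.15 ± 0.13, adjusted p = 0.388), with overlapping groups, and was called lower with library weights (-0.31, adjusted p = 0.015). The lines differed in their change by -1.91 ± 0.20, adjusted p = 3.33e-05 for SAMD9L and by -0.90 ± 0.15, adjusted p = 0.000537 for SAMD9.

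The members that act on nucleotides split. RSAD2, or viperin, makes a chain-terminating nucleotide, and CMPK2, its neighbour, is a mitochondrial nucleotide kinase. In JeKo-1 RSAD2 stood at 0.144, 0.179 and 0.208 RPKM in the shCtrl libraries and 1.0, 1.11 and 1.34 in the shCycD1 libraries (log2 change 1.28 ± 0.11, adjusted p = 7.28e-05) and CMPK2 at 0.765, 0.418 and 0.575 RPKM in the shCtrl libraries and 5.4, 4.05 and 6.52 in the shCycD1 libraries (log2 change 2.41 ± 0.19, adjusted p = 4.24e-05). Both sets of silenced libraries lay above their controls, which the minimum for testing fixed in advance, as every control was under 1 RPKM. SAMHD1, which breaks down deoxynucleotides, fell in both lines. In Granta-519 it stood at 5.58, 5.16 and 5.69 RPKM in the shCtrl libraries and 3.75, 4.46 and 3.94 in the shCycD1 libraries (log2 change -0.40 ± 0.093, adjusted p = 0.0148), a call lost without shCtrl 1 (-0.38, adjusted p = 0.0557), shCycD1 1 (-0.35, adjusted p = 0.0615) or shCycD1 3 (-0.38, adjusted p = 0.0553). JeKo-1 had 14.9, 16.2 and 15.2 RPKM in the shCtrl libraries and 9.49, 11.4 and 12.1 in the shCycD1 libraries (log2 change -0.48 ± 0.11, adjusted p = 0.00571). Its groups did not overlap in either line, and with spike-in scaling it was at 0.30, adjusted p = 0.373 in Granta-519, above 0, and at -0.54, adjusted p = 0.218 in JeKo-1.

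Among the nuclear members, IFI16 is a sensor of DNA, SP100 and SP110 are nuclear body proteins, and PHF11 is a zinc finger protein. IFI16 fell in both lines. In JeKo-1 it was the most abundant member by RPKM in the control libraries and stood at 270.2, 276 and 283 RPKM in the shCtrl libraries and 145, 173 and 174 in the shCycD1 libraries (log2 change -0.75 ± 0.085, adjusted p = 0.000233). In Granta-519 it stood at 19.4, 19.4 and 21.2 RPKM in the shCtrl libraries and 13.7, 13.6 and 14.6 in the shCycD1 libraries (log2 change -0.50 ± 0.074, adjusted p = 0.00238). No silenced library reached a control library, but with spike-in scaling neither fall was called and the Granta-519 value turned (0.25, adjusted p = 0.463, against -0.82, adjusted p = 0.0867 in JeKo-1). SP100 was called in opposite directions. It stood at 5.00, 4.88 and 4.93 RPKM in the shCtrl libraries and 6.14, 5.58 and 6.08 in the shCycD1 libraries in Granta-519 (log2 change 0.24 ± 0.078, adjusted p = 0.0453), a call lost without any 1 of the 6 libraries (0.22 to 0.28, adjusted p = 0.0517 to 0.152), with the replicate block (0.24, adjusted p = 0.0915) and with quantile normalization (0.21, adjusted p = 0.0924). JeKo-1 values were 16.6, 16.7 and 17.6 RPKM in the shCtrl libraries and 12.7, 13.5 and 14.2 in the shCycD1 libraries (log2 change -0.32 ± 0.080, adjusted p = 0.00921), a call lost with GC correction (-0.093, adjusted p = 0.246) and with spike-in scaling (-0.38, adjusted p = 0.411). SP110 rose in JeKo-1 (log2 change 0.57 ± 0.11, adjusted p = 0.00275), while its Granta-519 value of 0.10 was not called (adjusted p = 0.474). The SP110 changes differed between the lines (-0.48 ± 0.15, adjusted p = 0.0235), but not with spike-in scaling (0.27, adjusted p = 0.613), when the JeKo-1 values were read as log2 (-0.32, adjusted p = 0.0735) or with 1 library left out, namely shCycD1 1 (-0.44, adjusted p = 0.0581) or 3 (-0.42, adjusted p = 0.0603) of Granta-519, or shCtrl 2 (-0.42, adjusted p = 0.0555), shCtrl 3 (-0.45, adjusted p = 0.0505), shCycD1 1 (-0.45, adjusted p = 0.0529) or shCycD1 2 (-0.42, adjusted p = 0.0549) of JeKo-1. PHF11 was not called in either line (0.026 and 0.090), though it was called higher in JeKo-1 with GC correction (0.33, adjusted p = 0.0144).

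IFI27, IFI44 and IFI6 had the largest changes of the members in JeKo-1 after IFIT3. IFI27, a small mitochondrial and nuclear membrane protein, stood at 0.629, 0.818 and 0.576 RPKM in the shCtrl libraries and 14.6, 15.0 and 19.3 in the shCycD1 libraries (log2 change 3.83 ± 0.14, adjusted p = 1.55e-06). IFI44 stood at 0.657, 0.754 and 0.378 RPKM in the shCtrl libraries and 8.65, 9.54 and 14.2 in the shCycD1 libraries (log2 change 3.35 ± 0.21, adjusted p = 1.66e-05) and its neighbour IFI44L at 0.148, 0.543 and 0.188 RPKM in the shCtrl libraries and 5.21, 6.53 and 8.59 in the shCycD1 libraries (log2 change 3.21 ± 0.23, adjusted p = 2.97e-05). In each of these the highest control library was under 1 RPKM and the lowest silenced library above 5 RPKM. As every control was under 1 RPKM, the minimum for testing fixed in advance that the groups lay apart. IFI6, a relative of IFI27, stood at 2.17, 2.47 and 1.87 RPKM in the shCtrl libraries and 22.5, 22.1 and 33.1 in the shCycD1 libraries (log2 change 3.29 ± 0.17, adjusted p = 6.81e-06). IFI35, a leucine zipper protein, rose by 1.62. In Granta-519 IFI6 rose as well, with 0.969, 1.19 and 0.531 RPKM in the shCtrl libraries and 3.51, 3.09 and 3.17 in the shCycD1 libraries (log2 change 1.46 ± 0.18, adjusted p = 0.00122). IFI44 stood at 1.58, 1.34 and 1.54 RPKM in the shCtrl libraries and 1.48, 1.81 and 2.2 in the shCycD1 libraries (log2 change 0.22 ± 0.13, adjusted p = 0.228), with overlapping groups. IFI35 rose by 0.39 (adjusted p = 0.0139), which was not called with the replicate block and GC correction together (0.37, adjusted p = 0.0549). The changes differed for IFI44 (-3.13 ± 0.27, adjusted p = 6.01e-06), IFI6 (-1.83 ± 0.27, adjusted p = 0.000283) and IFI35 (-1.23 ± 0.11, adjusted p = 1.13e-05). The pseudocount of 0.5 RPKM holds down the IFI6 change more in Granta-519 than in JeKo-1, which widens the IFI6 difference.

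Of the remaining 8 members, 7 rose in JeKo-1. EPSTI1, named for its induction in epithelial cells by stromal contact, stood at 3.68, 3.26 and 4.28 RPKM in the shCtrl libraries and 25.3, 26.8 and 35.6 in the shCycD1 libraries (log2 change 2.80 ± 0.15, adjusted p = 8.28e-06). The secreted glycoprotein LGALS3BP stood at 5.04, 4.35 and 3.6 RPKM in the shCtrl libraries and 31.4, 29.9 and 38.6 in the shCycD1 libraries (log2 change 2.81 ± 0.14, adjusted p = 6.18e-06). XAF1, which antagonises the apoptosis inhibitor XIAP, stood at 0.923, 0.663 and 0.935 RPKM in the shCtrl libraries and 8.4, 8.12 and 10.4 in the shCycD1 libraries (log2 change 2.82 ± 0.14, adjusted p = 4.77e-06). In all 3 the silenced libraries were several times the controls, though for XAF1 the minimum for testing fixed in advance that they lay above. ISG20, an RNA exonuclease, stood at 22.2, 19.4 and 21.8 RPKM in the shCtrl libraries and 75.6, 67.9 and 73.3 in the shCycD1 libraries (log2 change 1.75 ± 0.083, adjusted p = 4.50e-06), RTP4, a receptor chaperone, rose by 1.73, PLSCR1, a phospholipid scramblase, by 1.05 and SHISA5, an endoplasmic reticulum protein of the apoptosis pathway, by 0.76. LAP3, a leucine aminopeptidase, fell by 0.24 (adjusted p = 0.0151), a call lost with quantile normalization (-0.14, adjusted p = 0.11) and on leaving out shCycD1 1 (-0.20, adjusted p = 0.0569).

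In Granta-519 EPSTI1 and LGALS3BP rose. EPSTI1 stood at 0.841, 0.9 and 0.867 RPKM in the shCtrl libraries and 2.66, 2.78 and 2.4 in the shCycD1 libraries (log2 change 1.18 ± 0.089, adjusted p = 0.000234) and LGALS3BP at 60.5, 56.6 and 57.2 RPKM in the shCtrl libraries and 93.0, 85.6 and 88.5 in the shCycD1 libraries (log2 change 0.61 ± 0.067, adjusted p = 0.000751). The groups did not overlap for either, though for EPSTI1 the minimum for testing fixed this. The pseudocount of 0.5 RPKM holds down the EPSTI1 change more in Granta-519 than in JeKo-1, which widens its difference between the lines. PLSCR1 fell, with 2.91, 2.98 and 3.04 RPKM in the shCtrl libraries and 2.03, 2.36 and 2.34 in the shCycD1 libraries (log2 change -0.34 ± 0.088, adjusted p = 0.0202). That fall was lost without shCtrl 1 (-0.36, adjusted p = 0.0585), shCtrl 3 (-0.33, adjusted p = 0.0537) or shCycD1 1 (-0.29, adjusted p = 0.0796), and with spike-in scaling it stood above 0 (0.30, adjusted p = 0.343). ISG20 stood at 14.1, 17.4 and 13.9 RPKM in the shCtrl libraries and 13.6, 15.7 and 15.1 in the shCycD1 libraries (log2 change -0.029 ± 0.11, adjusted p = 0.858), with overlapping groups. RTP4 was at 0.20, SHISA5 at 0.028 and LAP3 at -0.13 (adjusted p = 0.202, 0.781 and 0.227), and LAP3 was called lower with library weights (-0.18, adjusted p = 0.0218). The changes differed between the lines for LGALS3BP (-2.20 ± 0.16, adjusted p = 2.54e-06), ISG20 (-1.78 ± 0.14, adjusted p = 3.59e-06), EPSTI1 (-1.62 ± 0.18, adjusted p = 4.79e-05), RTP4 (-1.53 ± 0.15, adjusted p = 1.78e-05), PLSCR1 (-1.39 ± 0.22, adjusted p = 0.000484) and SHISA5 (-0.73 ± 0.13, adjusted p = 0.000976), of which only those of LGALS3BP and EPSTI1 stayed called with spike-in scaling.

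The minimum for testing was missed by 11 members in Granta-519. These were HERC5, HERC6, USP18, OASL, DDX60, DDX60L, RSAD2, CMPK2, IFI27, IFI44L and XAF1. All of them rose in JeKo-1. The gene lengths used for RPKM differ between the lines, so the minimum and the pseudocount are not the same measure in both. Fitted without the minimum, 7 of the 11 rose in Granta-519 and 0 fell, where 16.5% and 10.8% of all genes were called: OASL (0.76 ± 0.12, adjusted p = 0.00685), DDX60 (0.85 ± 0.13, adjusted p = 0.00631), DDX60L (0.46 ± 0.11, adjusted p = 0.0264), CMPK2 (0.53 ± 0.071, adjusted p = 0.00452), RSAD2 (0.49 ± 0.031, adjusted p = 0.000812), IFI44L (0.54 ± 0.049, adjusted p = 0.00154) and XAF1 (0.39 ± 0.088, adjusted p = 0.0234). DDX60 stood at 0.372, 0.325 and 0.442 RPKM in the shCtrl libraries and 0.875, 1.36 and 1.04 in the shCycD1 libraries and OASL at 0.356, 0.265 and 0.246 RPKM in the shCtrl libraries and 1.05, 0.696 and 0.771 in the shCycD1 libraries. In both the silenced libraries were above the controls. HERC5 (0.10 ± 0.044, adjusted p = 0.15), HERC6 (0.20 ± 0.078, adjusted p = 0.112) and USP18 (0.32 ± 0.15, adjusted p = 0.183) were not called. IFI27, the second largest rise of JeKo-1, stood at 0.167, 0.345 and 0.392 RPKM in the shCtrl libraries and 0.0763, 0.0886 and 0.204 in the shCycD1 libraries (-0.36 ± 0.13, adjusted p = 0.105), with overlapping groups. The number of reads behind levels this low is not known, which limits what can be said of them.

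Of the 41 members tested in both lines, the change differed between the lines in 33, being lower in Granta-519 than in JeKo-1 in 32 and higher in 1, SP100 (0.57 ± 0.10, adjusted p = 0.00113). Over all 10653 genes tested in both, the difference was called in 41.9%, lower in Granta-519 in 22.6% and higher in 19.3%. The 8 members with no call for the difference were IFI16, BST2, MX2, PARP12, ADAR, SAMHD1, LAP3 and PHF11. Counted by direction, 14 members rose in both lines (14.8% of all genes tested in both), SAMHD1 and IFI16 fell in both (13.1%), IFITM1, IFITM2, IFITM3 and PLSCR1 fell in Granta-519 and rose in JeKo-1 (1.86%), and SP100 rose in Granta-519 and fell in JeKo-1 (1.14%). None of the Granta-519 falls, and not the JeKo-1 fall of SP100, was called under spike-in scaling. With spike-in scaling 10 of the 33 differences stayed called, those of EPSTI1, IFI44, IFI6, IFIT1, IFIT3, IFITM1, LGALS3BP, OAS3, SAMD9L and SP100, so the size of the gap between the lines depends on the scaling. The lines differ in more than their response to the shRNA (culture medium, the gene lengths used for RPKM and the depth of the knockdown), and these cannot be told apart from the line.

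**Figure D4:**
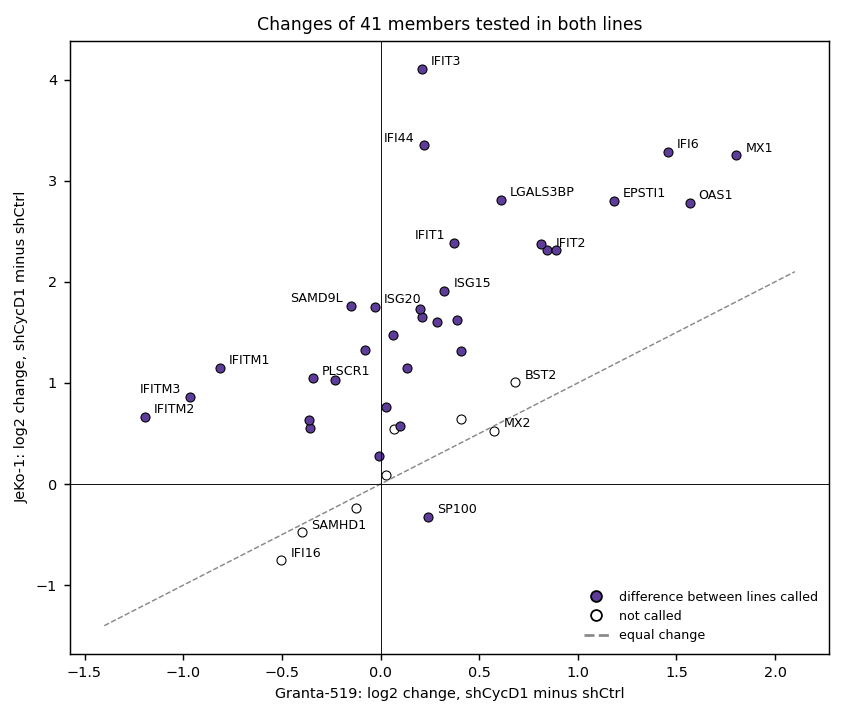
Change of the 41 members tested in both lines (difference of log2(RPKM + 0.5), shCycD1 minus shCtrl), Granta-519 across and JeKo-1 up; filled points have a called difference and the dashed line marks equal change. Most points lie above the dashed line, IFITM1, IFITM2 and IFITM3 sit in the upper left, SP100 lies below the line, and MX2, SAMHD1 and IFI16 lie close to it.

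The upstream pathway was followed on a list of 42 genes. The 9 interferon genes were all under the minimum for testing. The highest value among them was 0.58 RPKM, for IFNB1 in the Granta-519 shCycD1 3 library, a gene for which the other 5 Granta-519 libraries were listed at 0. In JeKo-1 the highest was 0.0848 RPKM, for IFNL2. Among the receptors, IFNGR1, a chain of the interferon gamma receptor, rose in Granta-519, with 21.7, 19.4 and 23.9 RPKM in the shCtrl libraries and 41.3, 37.9 and 41.9 in the shCycD1 libraries (log2 change 0.89 ± 0.094, adjusted p = 0.000663), and IL10RB (0.32), IFNAR1 (0.37) and IFNGR2 (0.35) rose too. The IFNAR1 call was lost with the replicate block (0.37, adjusted p = 0.0568) and without shCtrl 1 (0.37, adjusted p = 0.059), shCycD1 1 (0.38, adjusted p = 0.0576) or shCycD1 2 (0.33, adjusted p = 0.0634), and that of IFNGR2 without shCtrl 1 (0.33, adjusted p = 0.052), shCycD1 1 (0.30, adjusted p = 0.0561) or shCycD1 3 (0.33, adjusted p = 0.053). In JeKo-1 IFNLR1, the lambda interferon receptor, rose, with 10.8, 9.96 and 11.8 RPKM in the shCtrl libraries and 33.1, 28.6 and 32.5 in the shCycD1 libraries (log2 change 1.49 ± 0.10, adjusted p = 1.88e-05), and IFNAR2 fell by 0.37 (adjusted p = 0.0141). Of the kinases, JAK1 rose in both lines (0.59 and 0.28) and TYK2 in JeKo-1 (0.55), neither JeKo-1 call holding with spike-in scaling.

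STAT2 and IRF9 rose in both lines. IRF9 stood at 18.2, 14.6 and 19.5 RPKM in the shCtrl libraries and 33.1, 30.8 and 33.5 in the shCycD1 libraries in Granta-519 (log2 change 0.89 ± 0.12, adjusted p = 0.0014). Its JeKo-1 values were 5.75, 5.48 and 5.49 RPKM in the shCtrl libraries and 36.1, 27.6 and 34.6 in the shCycD1 libraries (log2 change 2.44 ± 0.11, adjusted p = 4.17e-06). STAT2 stood at 11.8, 12.2 and 9.82 RPKM in the shCtrl libraries and 52.3, 53.2 and 45.2 in the shCycD1 libraries in JeKo-1 (log2 change 2.11 ± 0.11, adjusted p = 6.63e-06), and the groups lay apart. It rose by 0.57 in Granta-519 (adjusted p = 0.0324), a call lost without the minimum (0.57, adjusted p = 0.0602), with the replicate block (0.57, adjusted p = 0.052) and without shCtrl 1 (0.57, adjusted p = 0.0815), 2 (0.55, adjusted p = 0.0707) or 3 (0.59, adjusted p = 0.066). IRF7, the amplifying factor of type I interferon, stood at 9.6, 8.3 and 6.64 RPKM in the shCtrl libraries and 42.7, 40.7 and 41 in the shCycD1 libraries in JeKo-1 (log2 change 2.29 ± 0.13, adjusted p = 9.54e-06), while its Granta-519 value of 0.23 was not called (adjusted p = 0.0632), although its groups there did not overlap. It was called in Granta-519 with GC correction (0.24, adjusted p = 0.0208), library weights (0.21, adjusted p = 0.0117), spike-in scaling (0.99, adjusted p = 0.00203) and without shCtrl 2 (0.29, adjusted p = 0.0293). IRF1 had a JeKo-1 rise of 1.71 and a Granta-519 value of -0.029 that was not called (adjusted p = 0.79). With spike-in scaling it was called there (0.74, adjusted p = 0.0219), at a value level with the all-gene median of 0.74. The changes differed between the lines for IRF9 (-1.56 ± 0.17, adjusted p = 3.26e-05), STAT2 (-1.54 ± 0.21, adjusted p = 0.000185), IRF7 (-2.06 ± 0.16, adjusted p = 2.95e-06) and IRF1 (-1.74 ± 0.11, adjusted p = 7.26e-07), and of these only that of IRF7 stayed called with spike-in scaling. IRF8, a B-cell factor of the same family, fell in both (-0.38 and -0.41). Its Granta-519 call was lost without shCtrl 1 (-0.35, adjusted p = 0.0772) or 3 (-0.33, adjusted p = 0.0667) and without shCycD1 1 (-0.31, adjusted p = 0.0791) or 3 (-0.39, adjusted p = 0.0592), with the replicate block (-0.38, adjusted p = 0.0646) or the block with GC correction (-0.40, adjusted p = 0.0572), and both calls with spike-in scaling (0.38, adjusted p = 0.228 and -0.47, adjusted p = 0.351). IRF5 rose in both (0.43 and 1.01), its Granta-519 call lost without shCycD1 1 (0.40, adjusted p = 0.0563) or 3 (0.41, adjusted p = 0.0507). IRF2 (0.76) and IRF3 (0.55) rose in JeKo-1, IRF2 not without shCycD1 2 (0.71, adjusted p = 0.0587) or 3 (0.74, adjusted p = 0.0579) and IRF3 not with GC correction (0.24, adjusted p = 0.056).

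Of the genes that restrain the pathway, SOCS1 rose in JeKo-1, with 2.05, 1.4 and 0.99 RPKM in the shCtrl libraries and 13.0, 9.04 and 7.19 in the shCycD1 libraries (log2 change 2.37 ± 0.26, adjusted p = 0.000185) and also in Granta-519 (log2 change 0.50 ± 0.15, adjusted p = 0.0351), a call lost without the minimum (0.50, adjusted p = 0.0637), with the replicate block (0.50, adjusted p = 0.0505) and without shCycD1 1 (0.45, adjusted p = 0.109), 2 (0.55, adjusted p = 0.0565) or 3 (0.50, adjusted p = 0.0847). PTPN2 and PIAS1 fell in JeKo-1 (-0.31 and -0.44), and both calls were lost with GC correction (-0.00088, adjusted p = 0.99 and -0.16, adjusted p = 0.171). Among the sensors of nucleic acids, ZBP1 stood at 0.132, 0.156 and 0.0741 RPKM in the shCtrl libraries and 3.89, 4.18 and 3.54 in the shCycD1 libraries in JeKo-1 (log2 change 2.81 ± 0.11, adjusted p = 1.72e-06). DHX58 (1.85), TMEM173 or STING (1.33), DDX58 or RIG-I (1.10), MAVS (0.93) and TLR7 (0.55) rose there, TLR7 not without shCtrl 1 (0.51, adjusted p = 0.0598) or 2 (0.52, adjusted p = 0.0604). Every JeKo-1 control of ZBP1 and DHX58 was under 1 RPKM. Both passed the minimum for testing only through their shCycD1 libraries, which fixed the separation of their groups. AIM2 fell by 0.69, a call lost without shCtrl 2 (-0.54, adjusted p = 0.0787) and shCycD1 1 (-0.56, adjusted p = 0.085) or 3 (-0.59, adjusted p = 0.0841), with GC correction (-0.43, adjusted p = 0.122) and without the minimum (-0.69, adjusted p = 0.06). IFIH1 or MDA5 stood at 6.03, 3.04 and 7.68 RPKM in the shCtrl libraries and 9.33, 7.68 and 13.1 in the shCycD1 libraries in JeKo-1 (log2 change 0.85 ± 0.32, adjusted p = 0.0507), with groups apart and no call. It was called with a pseudocount of 1 RPKM (0.79, adjusted p = 0.0485), spike-in scaling (0.79, adjusted p = 0.0435), GC correction (1.05, adjusted p = 0.0238), library weights (0.90, adjusted p = 0.0411), the replicate block (0.85, adjusted p = 0.00289), the block with GC correction (1.05, adjusted p = 0.00161) and without shCtrl 3 (1.10, adjusted p = 0.0236) or shCycD1 2 (1.01, adjusted p = 0.0457). In Granta-519 DHX58 (0.63), IFIH1 (0.52) and DDX58 (0.30) rose and TLR9 fell (-0.67), the last not with spike-in scaling (0.10, adjusted p = 0.757). The DDX58 call was lost without any 1 library (0.23 to 0.36, adjusted p = 0.0593 to 0.127). It was also lost without the minimum (0.30, adjusted p = 0.0663), with quantile normalization (0.21, adjusted p = 0.083), a pseudocount of 0.1 RPKM (0.38, adjusted p = 0.0554) and the replicate block (0.30, adjusted p = 0.094). MB21D1, which encodes the DNA sensor cGAS, fell in both lines. It stood at 5.77, 5.34 and 5.93 RPKM in the shCtrl libraries and 3.33, 3.0 and 3.81 in the shCycD1 libraries in Granta-519 (log2 change -0.68 ± 0.10, adjusted p = 0.00267). JeKo-1 had 3.87, 3.41 and 3.81 RPKM in the shCtrl libraries and 1.15, 1.05 and 1.08 in the shCycD1 libraries (log2 change -1.4 ± 0.095, adjusted p = 2.33e-05). In Granta-519 its fall was not called with spike-in scaling (0.014, adjusted p = 0.969). In all, 31 upstream genes could be tested in each line: in Granta-519 12 rose and 3 fell, and in JeKo-1 17 rose and 6 fell. Of all genes tested 22.4% rose and 18.2% fell in Granta-519, and 36.7% and 27.8% in JeKo-1. Without shCycD1 1 of Granta-519 the counts there were 7 and 2. With spike-in scaling they were 24 and 0 in Granta-519, where 60.8% of all genes rose and 1.16% fell. In JeKo-1 that scaling gave 13 and 2, where 14.4% of all genes rose and 11.7% fell. The JeKo-1 calls lost with it were those of IFNAR2, JAK1 (0.22, adjusted p = 0.671), TYK2 (0.49, adjusted p = 0.293), IRF2, IRF3, IRF8, PTPN2, PIAS1 and TLR7.

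**Figure D5:**
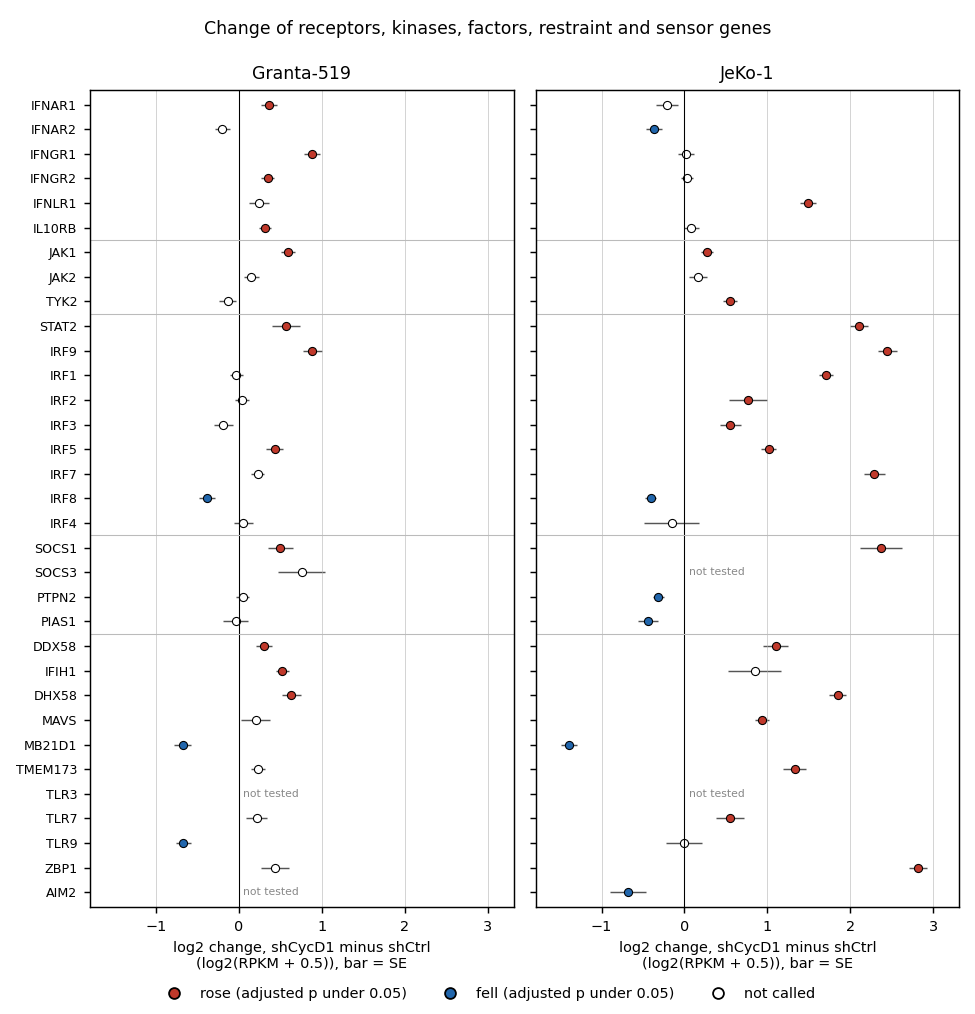
Change of the upstream genes other than the interferons (difference of log2(RPKM + 0.5), shCycD1 minus shCtrl, bar = SE, 3 against 3 libraries), in order receptors, kinases, factors, restraint and sensors. STAT2, IRF9 and SOCS1 are red (risen) in both lines with larger values in JeKo-1, and MB21D1 and IRF8 are blue (fallen) in both.

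The response element core was also set beside the changes. In JeKo-1, of the members with the core 28 of 29 rose, and of the members without it 12 of 15. Of the other genes with the core 36.2% of 218 rose and 27.1% fell, against 35.4% and 29.4% of 8183 without it. In Granta-519, 9 of the 24 tested members with the core rose and 3 fell, and of the 11 without it 3 rose and 2 fell. Of the other genes there, 20.1% of 239 with the core rose and 15.9% fell, against 22.2% and 19.2% of 8435 without it. These shares are descriptions and were not tested.

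Several members lie side by side in the genome. Neighbours that rose together in JeKo-1 were IFIT1 and IFIT5, IFIT2 and IFIT3, OAS1, OAS3 and OAS2, MX2 and MX1, IFI44L and IFI44, CMPK2 and RSAD2, PARP9 and DTX3L, HERC6 and HERC5, DDX60 and DDX60L, SAMD9 and SAMD9L, and IFITM2, IFITM1 and IFITM3. SP110 and SP100, with 2 protein-coding genes between them, went in opposite directions there. In Granta-519 IFIT2 rose while its neighbour IFIT3 was not called, and SAMD9 rose while SAMD9L was not called.

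Most markers of other cell types were low, with the exception of CSF1R and LILRA4 in Granta-519. Of 8 T and NK cell markers 0 reached a mean of 1 RPKM in Granta-519 and 1 (CD3G) did in JeKo-1. Of 8 myeloid markers 2 (CSF1R and ITGAM) and 1 (LYZ) did, with MPO and S100A8 listed at 0 in every library of both lines. Their sum was 46.9 to 52.8 RPKM in the Granta-519 shCtrl libraries and 40.9 to 47.7 in shCycD1, nearly all of it CSF1R. Of 9 epithelial, fibroblast and kidney markers 2 (KRT18 and COL1A1) and 1 (KRT8) did. Plasmacytoid dendritic cells, which produce much interferon, were followed by 6 markers. Their defining marker CLEC4C was at 0.386 RPKM or less in every library, GZMB was listed at 0 in JeKo-1, and LILRA4 was the main part of their sum, at 2.37 to 3.04 RPKM in the JeKo-1 shCtrl libraries and 4.85 to 5.47 in shCycD1. In JeKo-1 CLEC4C was at 0.027 to 0.0733 RPKM in shCtrl and 0.111 to 0.386 in shCycD1, and PTCRA at 0.182 to 0.291 and 1.62 to 1.95. IL3RA and NRP1 were higher with silencing there too, without overlap. In Granta-519 CLEC4C was lower with silencing (0.218 to 0.244 and 0.145 to 0.194). The sum of the 6 markers was 2.65 to 3.6 RPKM in the JeKo-1 shCtrl libraries and 7.08 to 7.5 in shCycD1, and it was 59.6 to 62.5 and 56.5 to 61.7 in Granta-519. Its part in the result was not tested.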

How the data were processed

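RNA of 12 libraries was sequenced with a stranded mRNA kit, per the labels' protocols. The authors deposited 1 table per line of gene values titled as RPKM, with no log base stated, and here a natural log of 1 + RPKM was taken to be the deposited scale. For Granta-519, low values taken out of a natural log were whole multiples of a step in 81.0 to 82.6% of cases (tolerance 0.1), against at most 53.6% for base 2 or 10, with the genomic span as gene length. The step was the best of many tried, so the 20% of a step fixed in advance is not the chance level here. For JeKo-1 no base gave over 31.0%, and the natural log is inferred from spike-in values, whose SD in JeKo-1 over Granta-519 was 0.972 with it and 0.711 with base 2. Tools named in the submitters' processing notes are TopHat2 2.1.1, FastQC and limma 3.9, with the builds hg19 and GRCh37. Counter and annotation are not given in the sources here, and depth is unknown.

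Values were taken back to RPKM, 1 row per symbol (the highest mean), and levels were never compared between the tables. Fits of each line used log2(RPKM + 0.5) and limma's trended empirical Bayes (version 3.58.1, R 4.3.3), for genes at 1 RPKM or more in at least 3 libraries, and a joint fit gave the difference between the lines. Adjusted p (Benjamini-Hochberg over all genes) under 0.05 was called, and the fits were tested on simulated data. Fold changes on this scale understate changes of low genes. Alternatives were other pseudocounts and filters, quantile normalization, spike-in scaling, GC correction (96% and 96.7% of genes with a value), library weights, a replicate block, summed rows, JeKo-1 read as log2, and each library left out. Values per library are given, by rule, for the 5 largest called rises and falls of each line, opposite calls, the 8 largest differences and the highest member of 6 families; others named with values were chosen after their values were seen. The members and lists were chosen with earlier results of these data known, and some listed genes are not reported here. P-values measure the spread between libraries. Promoter sequences are RefSeq's (GRCh38.p14), matched by symbol for 44 of 52 members.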

Additional observations from a re-analysis of the deposited data

Results flagged for a closer look

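The change with cyclin D1 silencing differed between the lines, by the test of the difference itself in the joint limma fit, in 33 of the 41 members tested in both. Values are Granta-519 minus JeKo-1 changes on the log2 scale, and 22.6% of all genes were called lower in Granta-519 and 19.3% higher. Among the IFIT genes the differences were IFIT3 (-3.90), IFIT1 (-2.01), IFIT2 (-1.47) and IFIT5 (-1.32). In the IFITM, OAS and MX families they were IFITM1 (-1.96), IFITM2 (-1.86), IFITM3 (-1.82), OAS3 (-1.56), OAS2 (-1.43), OAS1 (-1.21) and MX1 (-1.45). For ISG15 and its conjugating enzyme and for PKR they were ISG15 (-1.59), UBE2L6 (-1.41) and EIF2AK2 (-0.91). In the PARP, TRIM and SAMD9 groups they were SAMD9L (-1.91), PARP14 (-1.41), PARP9 (-1.26), DTX3L (-1.0), TRIM22 (-1.44), TRIM21 (-1.01), TRIM5 (-0.29) and SAMD9 (-0.90). For the remaining genes they were IFI44 (-3.13), LGALS3BP (-2.20), IFI6 (-1.83), ISG20 (-1.78), EPSTI1 (-1.62), RTP4 (-1.53), PLSCR1 (-1.39), IFI35 (-1.23), SHISA5 (-0.73) and SP110 (-0.48). SP100 alone was higher in Granta-519, at 0.57. The adjusted p of the differences ran up to 0.038, in TRIM5.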

How the results depend on the processing

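Leaving out 1 library at a time gave 11 to 15 risen and 4 to 9 fallen members in Granta-519 (median 0.15 to 0.22), 46 to 47 and 3 to 4 in JeKo-1 (median 1.48 to 1.59), and 30 to 33 members lower and 1 higher for the difference (median -1.4 to -1.27). The 11 risen were without shCtrl 1, and the 9 fallen without shCtrl 2. With spike-in scaling, where the mean log2 level of the 49 spike-ins used was 6.52 to 7.22 in Granta-519 shCtrl and 5.91 to 6.13 in shCycD1, 30 members rose and 0 fell in Granta-519 (median 0.89; 7849 of all genes called), 0 fell in JeKo-1 (3101 of all genes), and 9 differences were lower and 2 higher (median -0.58). With a mean RPKM of 5 or more required, fewer members and fewer genes were tested. By that rule 8 rose in Granta-519, 30 in JeKo-1 (median 1.15), 20 differences were lower and 2903 of all differences were called. Among the members still tested, the only call lost was that of SP100 in Granta-519. Library weights gave 11 fallen members in Granta-519 and 2 higher differences. The JeKo-1 median was 1.29 with a pseudocount of 1 RPKM, 1.84 with 0.1, and 1.19 with that table read as log2. The median difference was -1.21 with a pseudocount of 1 RPKM and with quantile normalization, and -0.84 with the log2 reading. Where not stated, the cause was not tested.

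Values turned from below to above 0, or the other way, as follows. With spike-in scaling Granta-519 had DTX3L at 0.41, EIF2AK2 at 0.35, IFI16 at 0.25, ISG20 at 0.72, LAP3 at 0.63, PARP14 at 0.67, PARP9 at 0.52, PLSCR1 at 0.30, SAMD9L at 0.61, SAMHD1 at 0.30 and TRIM5 at 0.74, and the difference had ADAR at 0.36, BST2 at 0.51, PARP12 at 0.47, PHF11 at 0.72, SHISA5 at 0.076, SP110 at 0.27 and TRIM5 at 0.51. With GC correction, with or without the replicate block, Granta-519 had TRIM5 at 0.0074 and the difference had IFI16 at -0.076 and SAMHD1 at -0.071. With library weights they were ADAR at -0.12, ISG20 at 0.041 and SHISA5 at -0.0062, and MX2 at -0.062 for the difference. For the difference, quantile normalization gave IFI16 at -0.0030 and the log2 reading SAMHD1 at -0.049. With single libraries left out, Granta-519 had ADAR at -0.090 to 0.15, ISG20 at -0.086 to 0.074, PARP14 at -0.27 to 0.058, PHF11 at -0.014 to 0.10 and TRIM5 at -0.050 to 0.020, and the difference had MX2 at -0.038 to 0.13, PHF11 at -0.13 to 0.0085 and SAMHD1 at -0.016 to 0.15. Of these, IFI16, PLSCR1 and SAMHD1 in Granta-519 and SHISA5, SP110 and TRIM5 for the difference had been called.

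Libraries with the same replicate number deviated together only weakly, with correlations of 0.00554, -0.124 and 0.0331 in Granta-519 and 0.187, 0.0949 and 0.103 in JeKo-1, so the numbers were not treated as pairs, though in JeKo-1 each library correlated best with its own number. With the replicate block 13 members rose and 6 fell in Granta-519, 47 rose and 4 fell in JeKo-1, and 31 differences were lower. The number of reads behind each value is unknown, which limits what can be said of members under 1 RPKM.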
